A study of Mus musculus with 8 samples.

Results

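Etnppl, the gene of ethanolamine-phosphate phospho-lyase, was described together with 5 genes of related function, Phykpl, Etnk1, Etnk2, Pcyt2 and Pemt, in cultured mouse hepatocytes. The 6 genes are set against 13845 genes tested in all. Etnppl was picked because its signal was much higher with glucagon in these same arrays, and the other 5 were picked by function. The array annotation gave 1 probe set each to Etnppl, Phykpl, Etnk1, Pcyt2 and Pemt, so no choice between probe sets was needed, and all 5 passed the filter on dim probe sets. It names no probe set for Etnk2, which is not analysed here.

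The cells were primary hepatocytes of male C57Bl6J mice, kept in low-glucose medium with 100 nM dexamethasone, a glucocorticoid that every group received. For 6 h they were given 100 nM glucagon with 2 µM GW4064 (the combined treatment), 100 nM glucagon, 2 µM GW4064, or DMSO. Glucagon is the hormone of fasting, which acts on hepatocytes through cyclic AMP, and GW4064 a synthetic ligand that activates FXR, the nuclear bile acid receptor. Each of the 4 groups has 2 arrays, 1 from each of 2 experiments, and each experiment drew on 1 pool of hepatocytes taken from 3 mice. Hence n = 2 per group throughout, the 2 replicates being separate cell pools. Values are log2 signals of Affymetrix MoGene 2.0 ST arrays, on which 1 unit is a doubling, and the number of arrays limits their precision.

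Phosphoethanolamine is the phosphorylated form of ethanolamine and stands at a branch point. In the CDP-ethanolamine branch the ethanolamine kinases (Etnk1, Etnk2) make it, Pcyt2 activates it with CTP, and the product becomes the membrane lipid phosphatidylethanolamine, which the liver enzyme Pemt can methylate to phosphatidylcholine. Etnppl instead breaks phosphoethanolamine down to acetaldehyde, ammonia and phosphate, and Phykpl, its close relative, acts in the same way on phosphohydroxylysine from collagen breakdown.

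The sequences just upstream of the transcription start are shown for 3 of the measured genes. Etnppl, with an averaged glucagon log2 difference of 4.17, was chosen for that difference and not tested for it. Beside it stand 2 genes that were tested and did not pass, Etnk1 at 0.39 and Phykpl at -0.04. Pemt did not pass either and is not printed. The 3 printed are RefSeq sequences of GRCm38.p6, 250 bases each on the plus strand, at chr3:130617198-130617447 (Etnppl), chr11:51584531-51584780 (Phykpl) and chr6:143166980-143167229 (Etnk1). Capitals mark matches to TGACG, the half-site of the cyclic AMP response element (CRE), or to TTGCNNAA, a C/EBP motif, on either strand.
Etnppl: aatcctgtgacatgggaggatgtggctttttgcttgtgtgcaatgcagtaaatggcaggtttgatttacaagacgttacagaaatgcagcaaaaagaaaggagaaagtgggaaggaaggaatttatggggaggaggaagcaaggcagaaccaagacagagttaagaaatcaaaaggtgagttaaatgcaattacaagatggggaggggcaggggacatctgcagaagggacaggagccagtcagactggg
Phykpl: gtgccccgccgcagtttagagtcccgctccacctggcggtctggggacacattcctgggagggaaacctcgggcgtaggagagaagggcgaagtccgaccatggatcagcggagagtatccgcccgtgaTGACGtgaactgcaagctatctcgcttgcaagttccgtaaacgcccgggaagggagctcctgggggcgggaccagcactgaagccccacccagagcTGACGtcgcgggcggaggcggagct
Etnk1: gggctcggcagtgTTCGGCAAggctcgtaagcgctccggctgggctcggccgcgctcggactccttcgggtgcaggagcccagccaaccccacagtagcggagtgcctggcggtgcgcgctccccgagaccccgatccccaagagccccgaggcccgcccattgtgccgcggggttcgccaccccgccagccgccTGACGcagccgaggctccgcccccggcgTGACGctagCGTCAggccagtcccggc
The CRE half-site matched in Phykpl, with first bases 121 and 25 bases before the start, and in Etnk1 at 55, 27 and 18 bases before it. Etnk1 also held the C/EBP letters at 237 bases. The window of Etnk2, which is not printed, held the half-site at 134 bases. Neither Etnppl window, the one printed and that of a second start 127 bases downstream, held any of the 6 motifs searched on both strands, and neither did either window of Pemt. Besides these motifs they were TGACGTCA (full CRE), TGTTTAC (FOXA), the palindromic glucocorticoid response element and the inverted repeat bound by FXR, given by name. Matches of the full CRE contain the half-site. Of all 32851 windows of this length, 17.8% held the half-site, 9.56% the C/EBP motif, 3.17% the FOXA motif, 1.55% the full CRE, 0.00913% the glucocorticoid element and 0.00609% the FXR repeat. A match describes letters only.

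Array medians lay between 3.42 and 3.57. The GW4064 array of experiment 2 stood apart: its correlations with the other 7 arrays over the tested genes were 0.975 to 0.985, while those among the other 7 were 0.976 to 0.997, and 40% of its probe sets lay below 3.27, against 3.13 to 3.17 on the others. Every averaged glucagon or GW4064 difference uses it. Hepatocyte markers were bright, with a median of 11.2 to 11.8 over 8 genes on the arrays. It was also higher with glucagon: in experiment 1 it was 11.6 with the combined treatment and 11.7 with glucagon, against 11.3 with GW4064 and 11.2 with DMSO. In experiment 2 it was 11.79 with the combined treatment and 11.81 with glucagon, against 11.71 with GW4064 and 11.54 with DMSO. Of the 8 markers 1 rose for the averaged glucagon difference, where 1.32% of all genes passed, and 0 of those of the other cell types did. The 8 did not move alike: the averaged glucagon difference was -0.01 for Alb, -0.04 for Apoa1 and 0.46 for Cps1. Those of the other hepatocyte markers are not given here. The part of this shift in the other results was not tested. The medians were 4.42 to 5.0 for markers of sinusoidal endothelium, 3.13 to 3.27 for macrophages, 3.81 to 3.95 for stellate cells, 3.37 to 3.64 for cholangiocytes and 2.73 to 2.93 for lymphocytes and neutrophils.

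Etnppl (probe set 17402642) had the widest range of the 5 genes. Its signal was 9.08 and 9.87 with the combined treatment and 9.03 and 9.94 with glucagon, in experiments 1 and 2. With GW4064 it was 4.81 and 6.08, and with DMSO 4.39 and 5.96. Every array with glucagon lay above every array without it; the closest pair were 9.03 (glucagon, experiment 1) and 6.08 (GW4064, experiment 2). The lowest value, on the DMSO array of experiment 1, was still above 3.14, the level under which 40% of the probe sets of that array lay.

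Etnppl averaged 9.48 ± 0.65 with glucagon and 5.17 ± 1.11 with DMSO (SD, n = 2 each), a log2 difference of 4.31, or 19.8-fold. The difference was 4.63 in experiment 1 and 3.98 in experiment 2. It was 3.53 without the DMSO array of experiment 1 and 5.09 without that of experiment 2, the lowest and highest values of this difference of Etnppl when single arrays were left out. In the presence of GW4064 it averaged 9.48 ± 0.56 with the combined treatment and 5.45 ± 0.90 with GW4064 alone, a difference of 4.03, or 16.3-fold, with 4.27 and 3.79 in the experiments. In size the difference was rank 2 of 13845 genes for glucagon against DMSO and rank 3 for the combined treatment against GW4064. These values led to the choice of the gene, so they are a description and no test is given. For scale, the gluconeogenic gene Pck1 differed by 5.15 and G6pc by 4.08 when both comparisons were averaged, and Etnppl by 4.17.

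**Figure D1:**
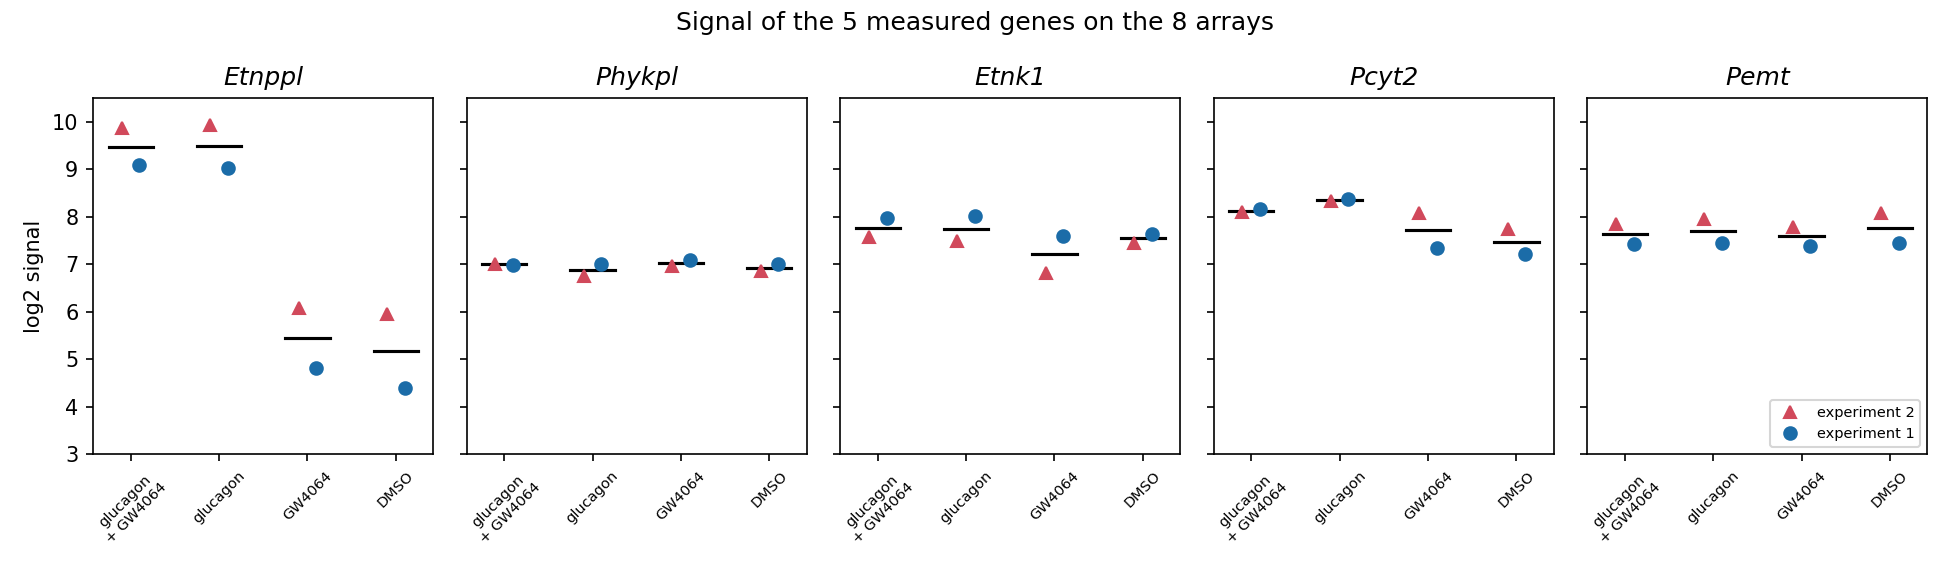
Log2 signal (vertical axis) of the 5 measured genes on the 8 arrays, by treatment; triangles are experiment 2, circles experiment 1, and bars the mean of the 2. Etnppl lies between 9.03 and 9.94 with glucagon and between 4.39 and 6.08 without it, while Phykpl stays between 6.75 and 7.10.

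Phykpl (probe set 17249328), the phospho-lyase most like Etnppl, had nearly the same signal everywhere. It was 6.99 and 7.01 with the combined treatment and 7.0 and 6.75 with glucagon, against 7.10 and 6.96 with GW4064 and 7.0 and 6.85 with DMSO. The groups with and without glucagon overlapped. Averaged over both comparisons the glucagon difference was -0.04 (SE 0.10, 95% interval -0.27 to 0.19; limma adjusted p = 0.895), with -0.05 and -0.02 in the experiments. A difference of the size seen in Etnppl lay outside that interval, as it did outside those of Pcyt2, Etnk1 and Pemt below. Etnppl was picked for that size, so this is no test of Phykpl against it.

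Pcyt2 (probe set 17273200), whose product makes CDP-ethanolamine, had the second widest glucagon difference of the 5. Its signal was 8.15 and 8.09 with the combined treatment and 8.37 and 8.33 with glucagon, against 7.35 and 8.08 with GW4064 and 7.22 and 7.73 with DMSO. All 4 arrays with glucagon lay above the 4 without it, but the GW4064 array of experiment 2 came within 0.01 of the combined array of its own experiment. The share of all genes that separate in this way is not given, here or for the genes below. Glucagon against DMSO differed by 0.87 (SE 0.26; 1.15 and 0.59 in the experiments; adjusted p = 0.492), and the combined treatment against GW4064 by 0.41 (SE 0.26; 0.80 and 0.01; adjusted p = 0.608). The average of both was 0.64 (SE 0.18, 95% interval 0.21 to 1.08), with adjusted p = 0.176, and it did not pass. With the experiment as a block, which compares arrays within a cell pool, the interval was 0.28 to 1.00 (SE 0.15). It did not pass there either (limma adjusted p = 0.0626). Without the GW4064 array of experiment 2 the average was 0.82 and passed. That fit is left with a single array of GW4064 alone, and more of all genes passed in it too.

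Etnk1 (probe set 17464165), 1 of the 2 ethanolamine kinase genes, had signals of 7.98 and 7.56 with the combined treatment and 8.02 and 7.48 with glucagon. With GW4064 they were 7.59 and 6.82, and with DMSO 7.64 and 7.45. Within each experiment both arrays with glucagon were above both without it, while across experiments the groups overlapped. The averaged difference was 0.39 (SE 0.21, 95% interval -0.11 to 0.88), and it did not pass (adjusted p = 0.461). With the experiment as a block the interval was 0.13 to 0.65 (SE 0.11), which leaves out 0, but the adjusted p of limma was 0.0927. In experiment 1 glucagon against DMSO differed by 0.38 and the combined treatment against GW4064 by 0.40. In experiment 2 these differences were 0.03 and 0.74, the second of them with the array that stood apart. Without that array the average of Etnk1 was 0.20 (adjusted p = 0.598).

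Pemt (probe set 17263516), which methylates phosphatidylethanolamine, had signals of 7.43 and 7.85 with the combined treatment and 7.44 and 7.95 with glucagon. With GW4064 they were 7.38 and 7.79, and with DMSO 7.45 and 8.07. The groups overlapped, and the averaged glucagon difference was -0.01 (SE 0.20, 95% interval -0.48 to 0.47; adjusted p = 0.993), with 0.02 and -0.03 in the experiments.

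Of the 4 genes beside Etnppl, 0 passed for glucagon against DMSO, where 0.116% of all genes did, 0 for the combined treatment against GW4064, where 0.166% did, and 0 for the average, where 1.32% did. Their median averaged difference was 0.19, and that of all genes tested was -0.00. With the experiment as a block, which compares arrays within a cell pool, 0 of the 4 passed in each comparison as well, the shares of all genes being 0.925%, 1.06% and 5.76%. 

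GW4064 did not move any of the 5 genes past the test. For Etnppl, GW4064 on top of glucagon differed by -0.01 (SE 0.64; 0.06 and -0.07 in the experiments), and GW4064 against DMSO by 0.27 (SE 0.64; 0.42 and 0.13). The 95% interval of the average of both was -0.93 to 1.19. It was -0.20 to 0.46 with the experiment as a block. These comparisons share arrays with the one that led to its choice.

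For the other 4 genes the averaged GW4064 differences were 0.11 (Phykpl), 0.01 (Pcyt2), -0.12 (Pemt) and -0.16 (Etnk1), and the widest 95% interval was -0.66 to 0.34, for Etnk1. Etnk1 differed by -0.63 in experiment 2, the array that stood apart, but by -0.05 in experiment 1. Of the 5 genes, 0 passed for GW4064 against DMSO, for GW4064 on top of glucagon and for their average, and 0% of all genes passed in each. The interaction, which asks whether the glucagon difference depends on GW4064, was passed by 0 of the 4 genes tested and by 0% of all genes. At an unadjusted p below 0.05 limma gave 373 genes for GW4064 against DMSO, 90 for GW4064 on top of glucagon, 216 for their average and 149 for the interaction. With the experiment as a block these counts were 720, 194, 447 and 332. With no difference in any gene, a share of 0.05 of the 13845 genes would be expected. Only the count of 720 is above that share, so these counts do not show a response to GW4064. When the GW4064 array of experiment 1 was left out, so that the array standing apart was the only one with GW4064 alone, 406 genes passed for GW4064 against DMSO, and 0 of the 5 were among them. The known FXR targets Abcb11 and Nr0b2 had averaged GW4064 differences of 0.59 (SE 0.21) and 0.34 (SE 0.12) and did not pass either, so the absence of calls does not show that GW4064 left a gene unmoved.

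**Figure D2:**
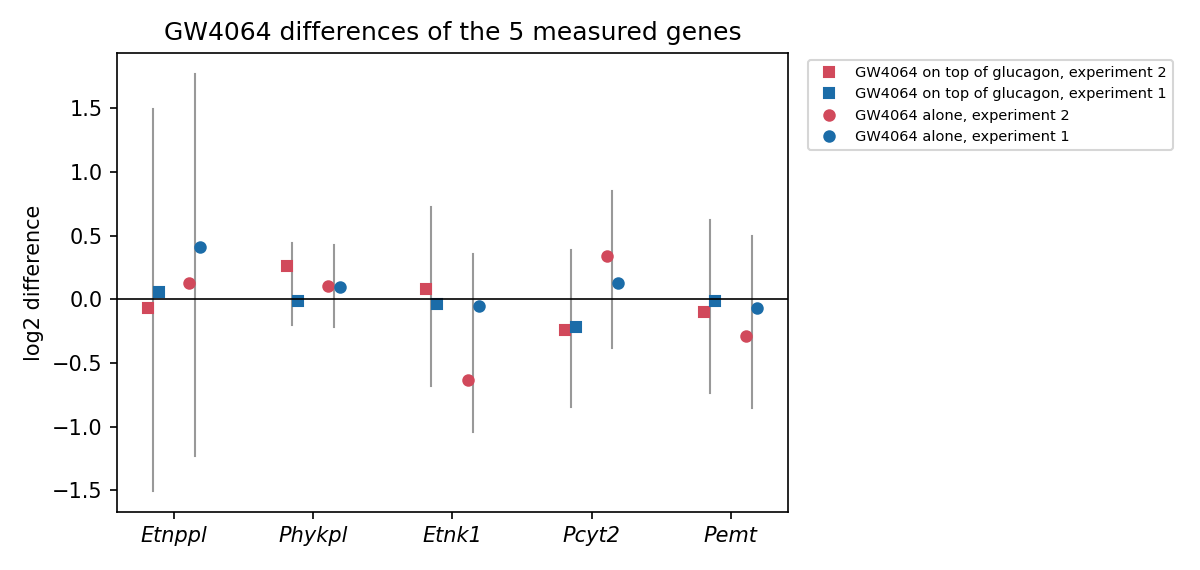
Log2 differences made by GW4064 in the 5 measured genes: squares are GW4064 on top of glucagon, circles GW4064 alone, red experiment 2 and blue experiment 1; grey lines are 95% intervals of the limma difference without a block. Every interval spans 0, and the single value farthest from 0 is -0.63, Etnk1 in experiment 2.

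Etnppl also differed between the 2 cell pools. Experiment 2 was above experiment 1 in every treatment, by 0.79 with the combined treatment, 0.91 with glucagon, 1.28 with GW4064 and 1.56 with DMSO. With treatment in the model the difference was 1.14 (SE 0.14, 95% interval 0.80 to 1.47; 2.20-fold; adjusted p = 0.0131). The pool with the higher level without glucagon had the smaller glucagon difference. This was not tested, since each treatment has 1 array per pool. The level without glucagon is also subtracted in that difference, so the 2 values are not independent.

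Pemt was also higher in experiment 2, by 0.49 (SE 0.08; 1.41-fold; adjusted p = 0.0236), with 0.42, 0.51, 0.41 and 0.62 in the 4 treatments in the same order. Etnk1 had lower values in experiment 2 in all 4 treatments, with a difference of -0.48 (SE 0.11) that did not pass (adjusted p = 0.0597). Pcyt2 differed by 0.73 with GW4064 and 0.51 with DMSO, but by -0.07 and -0.04 with the combined treatment and with glucagon, and Phykpl differed by -0.13 over all treatments. In all 2 of 5 genes passed, where 5.16% of all genes did.

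The 4 arrays of an experiment share their cells, so this test compares these 2 pools only. Without either DMSO array both calls were lost, as were most of those of all genes, and the differences were 0.99 for Etnppl and 0.45 for Pemt. Leaving out the one or the other gives the same fit, since the DMSO array that remains carries no information on the pools. The call of Pemt was also lost without any glucagon array or combined array. The markers moved between the pools too: the hepatocyte median was 11.5 to 11.8 in experiment 2 and 11.2 to 11.7 in experiment 1, and the endothelial median 4.42 to 4.79 in experiment 2 and 4.89 to 5.0 in experiment 1. Their part in the result was not tested, and fewer cells of a type cannot be told apart from less RNA per cell here.

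**Figure D3:**
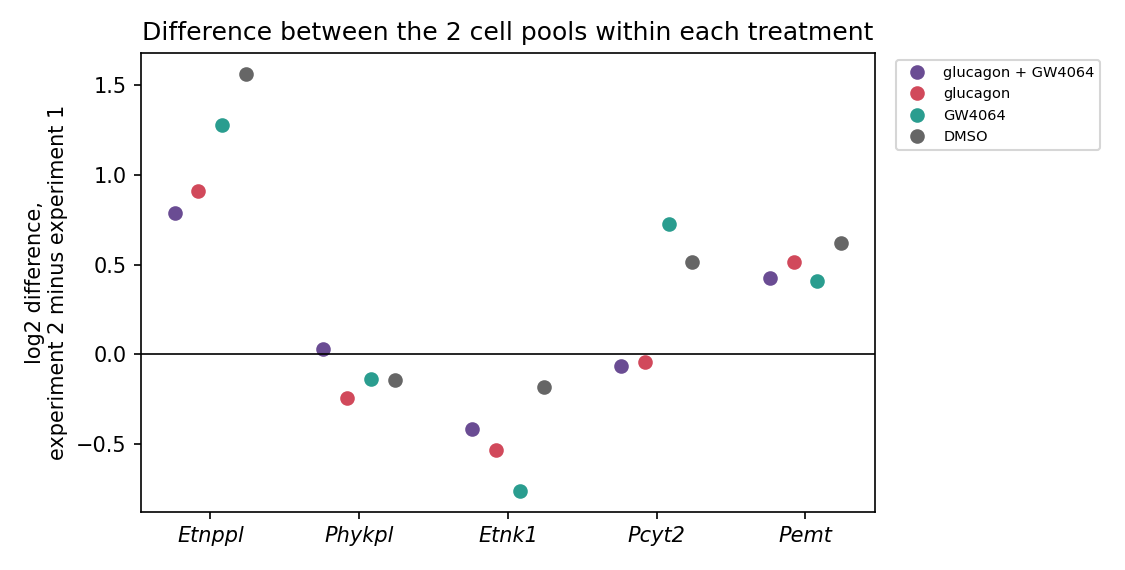
Log2 difference between the cell pools, experiment 2 minus experiment 1, of the 5 measured genes within each treatment (colours). All 4 values of Etnppl lie between 0.79 and 1.56 and all 4 of Pemt between 0.41 and 0.62, while those of Pcyt2 are near 0 with glucagon and above 0.5 without it.

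Around these genes, 50 others were listed by function, of which 42 could be tested. Averaged over both glucagon comparisons, 4 of the 42 rose and 0 fell, where 1.32% of all genes passed (113 rose and 70 fell). The same share stands beside the counts of the single lists below. They were Mat1a, Aass, Oat and Gpcpd1, and their values are given with their groups. The median of the 42 was 0.14 and that of all genes -0.00. With the experiment as a block 9 rose and 2 fell, where 5.76% of all genes passed (370 rose and 427 fell). In the separate comparisons 1 of the 42 passed for glucagon against DMSO, where 0.116% of all genes did. For the combined treatment against GW4064 1 passed, where 0.166% did, and the gene was Aass in both. With the block 6 passed in each, where 0.925% and 1.06% of all genes did. For GW4064 on top of glucagon, GW4064 against DMSO and their average 0 of the 42 passed.

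In the CDP-ethanolamine branch 0 of 3 tested genes passed. All 3 were positive: beside Pcyt2 and Etnk1, Selenoi, which makes phosphatidylethanolamine from CDP-ethanolamine, differed by 0.31 (SE 0.12; adjusted p = 0.287). In the parallel CDP-choline branch, 0 of 3 passed without the block. Chka, the kinase that phosphorylates choline and can also phosphorylate ethanolamine, had lower signals with glucagon. Its signal was 9.34 and 8.99 with the combined treatment and 9.17 and 8.72 with glucagon, against 10.81 and 9.68 with GW4064 and 10.77 and 9.55 with DMSO. All 4 arrays with glucagon lay below the other 4, and the averaged difference was -1.15 (SE 0.34; adjusted p = 0.187, and 0.0161 with the block). Chpt1, which completes phosphatidylcholine, differed by 0.33 and Pcyt1a, the enzyme that activates phosphocholine, by 0.22, and neither passed.

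Among the 4 genes that interconvert phosphatidylserine and phosphatidylethanolamine, Pemt included, 0 passed. The synthase Ptdss2 differed by 0.30, Ptdss1 by -0.10 and the decarboxylase Pisd by -0.02. The value of Pisd joins -0.26 in experiment 1 and 0.21 in experiment 2, where the combined treatment against the GW4064 array that stood apart gave 0.78 and glucagon against DMSO -0.36. Of the genes that supply phosphoethanolamine from sphingolipids, Sgpl1, the sphingosine phosphate lyase that releases it, differed by 0.11 (SE 0.11). Sphk2, a sphingosine kinase, had signals of 6.49 and 6.39 with the combined treatment and 6.25 and 6.26 with glucagon, against 7.53 and 6.88 with GW4064 and 7.59 and 6.71 with DMSO. These groups did not overlap either, which by itself does not set Sphk2 apart, since the share of all genes is not given. The averaged difference was -0.83 (SE 0.22, adjusted p = 0.15, and 0.0377 with the block). The 4 tested genes of this list beside Etnppl had a median of 0.01, and 0 passed without the block.

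In the list for transport and release, 1 of 11 tested genes rose. Gpcpd1, a phosphodiesterase that splits glycerophosphocholine, had signals of 9.60 and 10.18 with the combined treatment and 9.85 and 10.21 with glucagon, against 7.80 and 7.95 with GW4064 and 7.77 and 8.40 with DMSO. The arrays with glucagon were all above those without, by 1.98 on average (SE 0.19; 3.94-fold; adjusted p = 0.00806). Gde1, another glycerophosphodiesterase, differed by 1.01 (SE 0.23; 1.15 and 0.87 in the experiments; adjusted p = 0.117, and 0.0034 with the block). The carriers Flvcr1 and Slc44a1, which take up choline, differed by 0.20 (0.05 and 0.36 in the experiments) and -0.03, and the median of the list was 0.07.

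Of the genes of hydroxylysine and lysine breakdown, 1 of 7 rose: Aass, which opens lysine breakdown, by 2.71 (SE 0.17; 6.54-fold; adjusted p = 0.0013), with 2.72 and 2.70 in the experiments. Hykk, the kinase that makes the substrate of Phykpl, was dim, with signals of 2.93 to 3.65, and differed by 0.28 (SE 0.14; adjusted p = 0.433). The hydroxylases Plod1 and Plod2, which form hydroxylysine in collagen, differed by 0.05 and 0.16. In the aminotransferase family to which Etnppl and Phykpl belong by sequence, 1 of the 4 genes beside Etnppl rose. That gene, Oat, the ornithine aminotransferase, had signals of 7.92 and 8.71 with the combined treatment and 8.31 and 9.04 with glucagon, against 5.67 and 6.69 with GW4064 and 5.87 and 6.98 with DMSO. Its averaged difference was 2.19 (SE 0.36; 4.57-fold; adjusted p = 0.0392). Abat, which degrades the transmitter GABA, differed by 0.42 (adjusted p = 0.0875, and 0.0403 with the block) and Agxt2 by 0.10.

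Of 6 genes that handle acetaldehyde and ammonia, the products of Etnppl, 0 passed without the block. Aldh2, the mitochondrial enzyme that oxidises acetaldehyde, differed by 0.01 (SE 0.08), Aldh1a1, a cytosolic aldehyde dehydrogenase, by 0.81 (SE 0.26; adjusted p = 0.219, and 0.00357 with the block) and Cps1, which brings ammonia into the urea cycle, by 0.46 (SE 0.09; adjusted p = 0.0624, and 0.024 with the block). Glul, the glutamine synthetase, differed by -0.35 (SE 0.13). Glud1, of the same list, had signals of 11.13 to 11.23 on the arrays with glucagon and 10.91 to 10.94 on the others. It did not pass with or without the block. In the list for methyl supply 1 of 5 rose. Mat1a, which makes the methyl donor that Pemt uses, had signals of 10.49 and 11.29 with the combined treatment and 10.95 and 11.47 with glucagon, against 7.41 and 8.87 with GW4064 and 7.06 and 8.50 with DMSO. Its averaged difference was 3.09 (SE 0.43; 8.52-fold; adjusted p = 0.0277). Chdh, which oxidises choline towards betaine, differed by 1.22 (SE 0.62; adjusted p = 0.431, and 0.0119 with the block).

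Single arrays decided some of these calls. Oat and Mat1a did not pass without the DMSO array of experiment 1 or without any 1 of the 4 arrays with glucagon, where adjusted p was 0.132 to 0.177 for Oat and 0.0899 to 0.129 for Mat1a. Oat also did not pass without the filter on dim probe sets (0.0548). Gpcpd1 and Aass passed for the average in all 16 alternatives run.

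**Figure D4:**
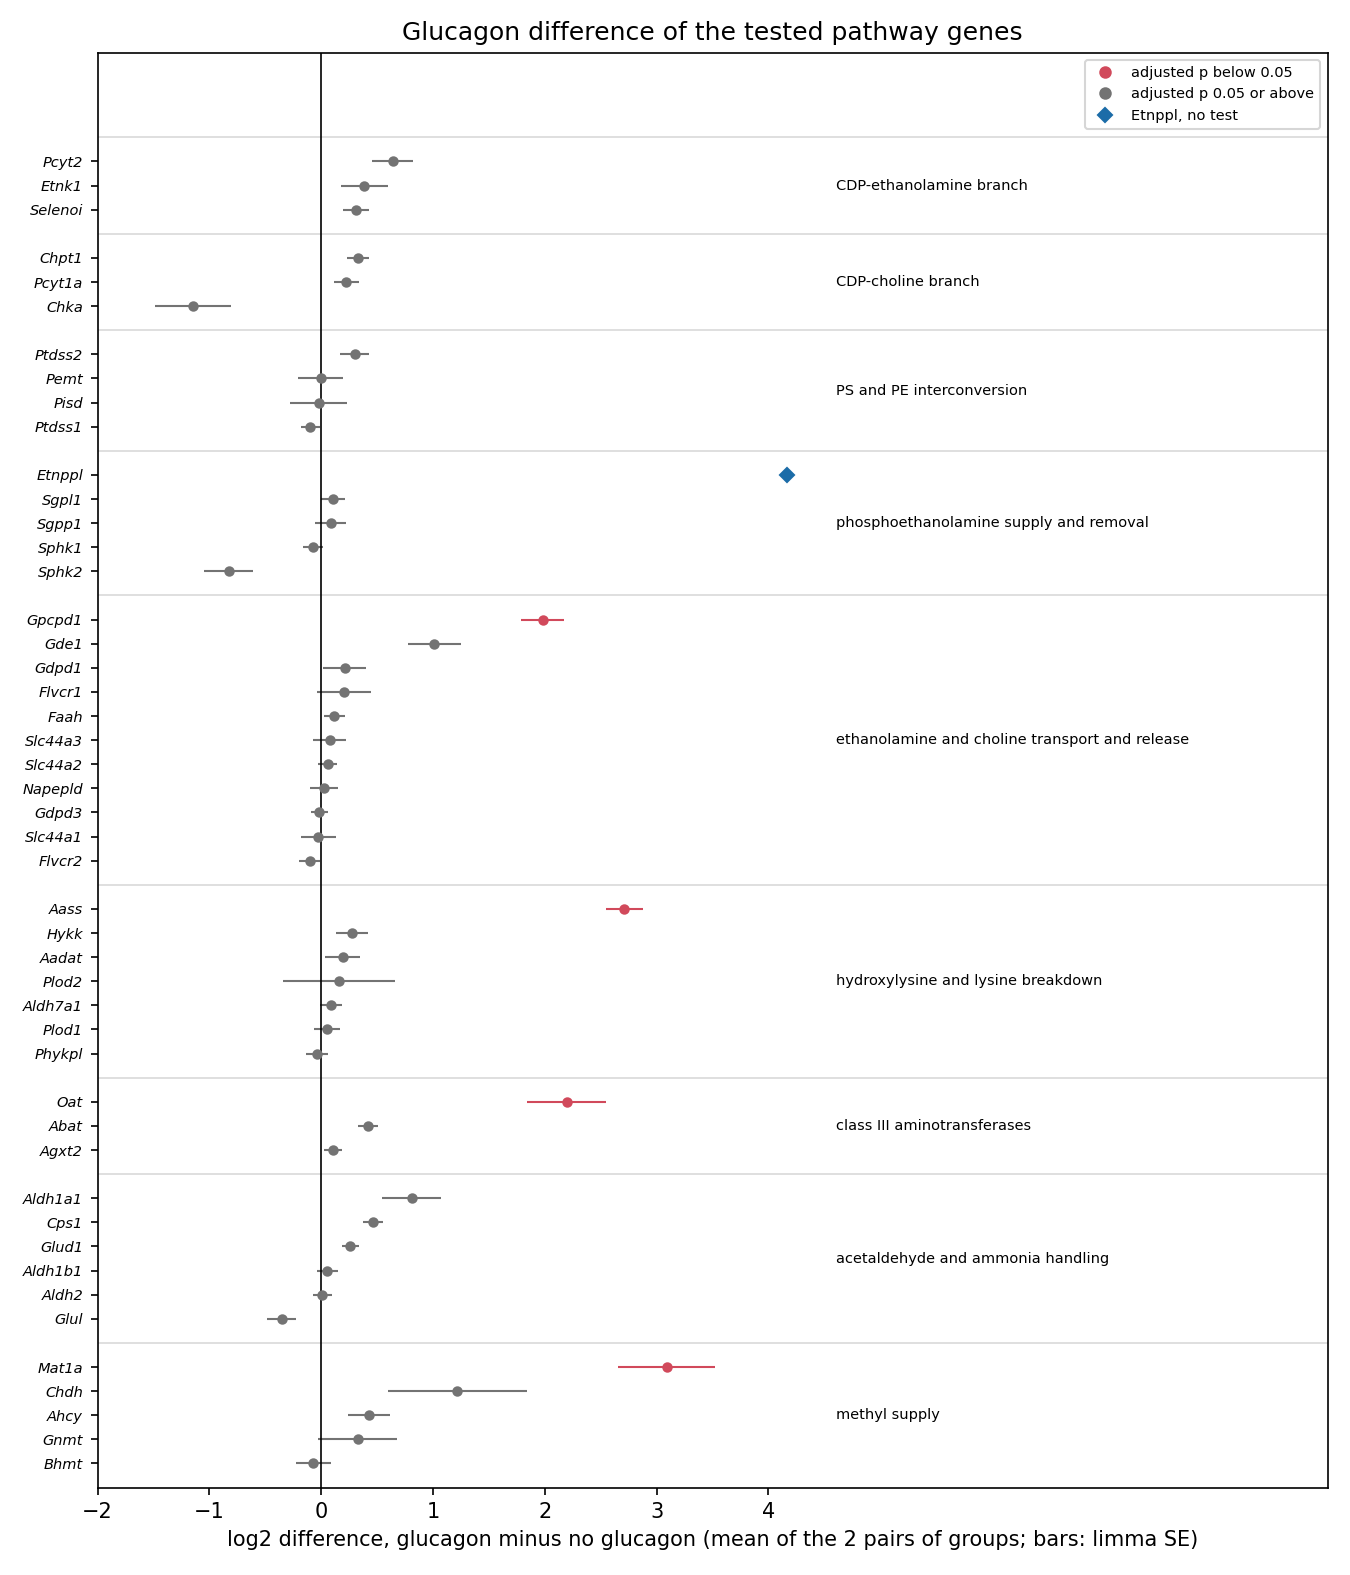
Averaged log2 difference, glucagon minus no glucagon (horizontal axis), of the tested genes by list, with limma SE without a block; a gene in several lists is drawn once, PS is phosphatidylserine and PE phosphatidylethanolamine. Etnppl (diamond, no test) lies at 4.17, the 4 genes that passed (red) between 1.98 and 3.09, and Chka at -1.15.

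Between the cell pools, 6 of the 42 other genes were higher in experiment 2 past the test and 1 was lower, where 5.16% of all genes passed in either direction. The higher ones were Chdh (1.60), Plod2 (1.30), Mat1a (1.06), Oat (0.91), Gnmt (0.87), which consumes the same methyl donor, and Gde1 (0.57), and the lower one was Aldh1a1 (-0.67). Mat1a and Oat passed both for glucagon and between the pools. Of the 7 calls, that of Chdh held without each array in turn. The other 6 were lost without either DMSO array, which is the same fit for both, and most calls of all genes were lost there too. They were not equally firm elsewhere. Of 13 alternatives, those of Gnmt, Gde1 and Aldh1a1 were each lost in 6 and that of Mat1a in 4, while those of Plod2 and Oat were each lost in 2.

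The 5 tested genes most like Etnppl in Pearson correlation of log2 signal over the 8 arrays were Mat1a (r = 0.993), the coactivator gene Ppargc1a (0.991), Gfra1 (0.990), AA986860 (0.990) and Dpy19l1 (0.989). Among the measured genes of the set r was 0.882 for Pcyt2, 0.348 for Etnk1, 0.234 for Pemt and -0.347 for Phykpl. After each experiment was centred on its mean it was 0.873 for Pcyt2, 0.755 for Etnk1, -0.05 for Pemt and -0.242 for Phykpl, so that of Etnk1 was higher and that of Pemt turned its sign. The 8 arrays fall into those with and without glucagon and into 2 cell pools, and r reflects both splits. After each experiment was centred, the 5 most like genes were Pck1 (0.999), Man2a1 (0.998), G6pc (0.998), Etfbkmt (0.996) and Palmd (0.996), none of them among the first 5.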

How the data were processed

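Gene expression in mouse primary hepatocytes was measured on 8 single-channel MoGene 2.0 ST arrays, 2 for each of 4 treatments, from 300 ng of RNA. The log2 signals were taken from the deposited table; per the series text, GeneSpring was used and 2 technical replicates were pooled per sample. How background was corrected, probes summarised and arrays normalized is not stated there, and the log2 scale was read from the range of the values. Of 41345 probe sets the platform annotation gave 23521 exactly 1 symbol, 1814 several and 16010 none, and only the first were tested. Probe sets above the 40th percentile of the array in 2 or more arrays were kept, and a gene with several kept the one with the highest mean, which left 13845 genes. Columns left unused numbered 0.

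Groups were compared with limma 3.58.1 in R 4.3.3 on all 8 arrays, with 1 mean per group (4 residual and 3.06 prior degrees of freedom). The averaged glucagon difference is the mean of glucagon minus DMSO and combined treatment minus GW4064, and the averaged GW4064 difference the mean of the other pair. P-values are two-sided with Benjamini-Hochberg adjustment across the 13845 genes, and a gene passed below 0.05. The difference between experiments was fitted with treatment as covariate. For glucagon minus DMSO, combined minus GW4064, their average and the interaction, Etnppl was neither tested nor counted. Each experiment was 1 pool of cells divided over the treatments, per the labels, so experiment numbers pair the arrays; deviations from group means correlated at 0.35 to 0.62 between groups. The members, lists and tests were chosen with earlier results of these data known. Genes were named by rule: the 6 members, up to 4 genes of each list by smallest p and those that passed, the 5 genes most like Etnppl by either correlation, and Pck1, G6pc, Nr0b2 and Abcb11 for scale. Plod1, Aldh2, Flvcr1 and Slc44a1 lie outside that rule and were named for their role after their values were seen. The steps were tested on simulated data. Promoters came from a RefSeq table, which held 5 of the 6 members, Pcyt2 being the other. Alternatives were a fixed or random experiment block, only the groups compared, quantile normalization, other filters, a trended prior, the mean of probe sets, and leaving out arrays.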

Additional observations from a re-analysis of the deposited data

Results flagged for a closer look

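Pcyt2 had opposite GW4064 differences with and without glucagon in both experiments. On top of glucagon GW4064 differed by -0.22 and -0.24 in experiments 1 and 2, and without glucagon by 0.13 and 0.34, so the effects differed by -0.46. The limma interaction did not pass (adjusted p = 1). Without the GW4064 array of experiment 2 the difference of Pcyt2 between GW4064 and DMSO was -0.13, so the opposite direction was lost, and the interaction was -0.10.

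Pemt had glucagon differences of 0.05 and 0.06 in the presence of GW4064 and of -0.01 and -0.12 in its absence, which differ by 0.12. The interaction of Pemt, 0.12 with an SE of 0.41, did not pass either (adjusted p = 1), and it was -0.19 to 0.43 when single arrays were left out. Each of the glucagon differences of Pemt above is smaller than the SE of 0.29 of a single comparison. Groups of 2 arrays are too small to look for single arrays that lie far from the rest of their group.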

How the results depend on the processing

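With the experiment as a replicate block, which the shared cell pools call for, 0 of the 4 genes tested beside Etnppl passed for the average, as without it, and in no comparison of treatments did the block change the number of the 5 genes past the test. With the block and without the GW4064 array of experiment 2, Pcyt2 moved past the test for glucagon against DMSO and for the average. That fit has 1 array of GW4064 alone, and in both comparisons many more of all genes passed than with the block only. The averaged difference of Pcyt2 itself was 0.64 on all arrays and 0.82 without that array alone. Whether the move is particular to Pcyt2 was not tested. Leaving out 1 array at a time gave 0 to 1 genes past the test for the averaged glucagon difference and 0 to 2 for the difference between experiments, where a trended prior gave 3, Etnk1 being added. Without an array the other array of its treatment carries no information on the difference between experiments. Averaged over both comparisons, the glucagon difference of Etnppl was 3.78 to 4.56 in 16 alternatives. The GW4064 differences of the 5 genes passed in no alternative. For the other pathway genes the number called for the average was 4, where 183 of all genes passed. With the block 9 rose and 2 fell, where 797 of all genes passed. It was 7 with a random block (444 of all genes), 5 with a trended prior (183) and 3 with no filter (170). It was lower when the first DMSO array, any glucagon array or any combined array was left out, and higher without either GW4064 array. In each of these fits the number of all genes called moved the same way. The averages and the interaction use all groups, so a fit of only the groups compared gives no alternative for them, and the block gives none for the difference between experiments.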
